A study of Mus musculus with 17 samples.

Results

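The genes described are 45 listed cell cycle genes, from cyclins and the replicative helicase to the kinases and motors of mitosis. The list was drawn up by name, with earlier results of these data known, and its rule used no measured value. Of the 45, 44 had a probe set that names 1 gene, among 12393 genes so named, and *Ccnb1* was not analysed here. Each gene is represented by the probe set with its highest mean signal over all arrays. Of the 44 genes, 21 had 1 probe set and 23 had several.

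Each of 17 male mice gave whole-lung RNA for 1 Affymetrix MOE430A array after an intravenous challenge with saline or with lipopolysaccharide (LPS, endotoxin) of *Escherichia coli* O111:B4 at 20 mg/kg. The wild-type mice (C57BL/6J) were 4 given saline and taken at 22 h, 3 taken 7 h after LPS, and 3 taken at 22 h. Of the *NOS2*-/- mice, which are deficient in inducible nitric oxide synthase, 1 was given saline (22 h), 3 were taken 7 h after LPS, and 3 at 22 h. The labels give no strain for the *NOS2*-/- mice, no saline mouse was studied at 7 h, and the 1 saline *NOS2*-/- mouse carries no spread of its own. The study looked for factors besides NOS2 that might impair hypoxic pulmonary vasoconstriction in endotoxemia, and compared the genotypes to find them. Its microarray methods describe the 22 h mice only.

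A dividing cell first licenses its origins with the MCM helicase, copies its DNA in S phase with a supply of deoxynucleotides, and then condenses and segregates its chromosomes under the control of CDK1, the Aurora kinases and Polo-like kinase. Many of these genes are transcribed in waves: E2F sites serve genes of DNA replication, and the cell cycle homology region (CHR) and CCAAT boxes serve genes of mitosis. The healthy adult lung divides slowly, so that the summed transcripts of a whole lung hold few dividing cells, and in such bulk tissue fewer cells of a type and less RNA per cell cannot be told apart.

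Values are log2 signals as deposited, and a difference of 1 is a 2-fold difference. A probe set was called higher or lower at an adjusted p under 0.05 (limma, Benjamini-Hochberg over 22626 probe sets), and ± after a difference is its standard error. Wild-type LPS 22 h replicate 2 correlated at only 0.955 and 0.949 with its group mates, which correlated at 0.996 with each other, so results that rest on it are also given without it. The saline *NOS2*-/- mouse had a summed linear signal of 25054 over 7 squamous epithelium markers (1954 to 2207 in saline wild-type mice) and of 14553 over 8 skeletal muscle markers (1133 to 1366), and the part of this in the *NOS2*-/- responses was not tested. The *Nos2* probe set read between 8.85 and 9.25 in *NOS2*-/- mice after LPS and between 8.19 and 9.06 in wild-type mice after LPS. It is not known which part of the gene it reads, so it does not check the genotypes, which are as labelled.

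Promoters of 37 of the 44 genes were found in the RefSeq table of build GRCm38.p6, from 250 bases before to 50 after the start of transcription. The 5 shown belong to called genes with the largest responses 22 h after LPS in wild-type mice among those that hold a match, so that the motif content can be read beside the values. Capitals mark the matches on either strand to E2F (TTTCCCGC, TTTCGCGC, TTTGCCGC or TTTGGCGC), CHR (TTTGAA) and the CCAAT box (CCAAT), and each sequence runs 5′ to 3′ along the gene's own strand.
Cdk1, chr10:69352863-69353162, minus strand: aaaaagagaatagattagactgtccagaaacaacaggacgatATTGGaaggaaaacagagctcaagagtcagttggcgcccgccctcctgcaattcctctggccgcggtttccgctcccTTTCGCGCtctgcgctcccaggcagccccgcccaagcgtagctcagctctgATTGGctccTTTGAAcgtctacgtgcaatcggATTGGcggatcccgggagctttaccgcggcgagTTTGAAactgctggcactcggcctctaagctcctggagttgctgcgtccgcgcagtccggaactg
Cks2, chr13:51644982-51645281, plus strand: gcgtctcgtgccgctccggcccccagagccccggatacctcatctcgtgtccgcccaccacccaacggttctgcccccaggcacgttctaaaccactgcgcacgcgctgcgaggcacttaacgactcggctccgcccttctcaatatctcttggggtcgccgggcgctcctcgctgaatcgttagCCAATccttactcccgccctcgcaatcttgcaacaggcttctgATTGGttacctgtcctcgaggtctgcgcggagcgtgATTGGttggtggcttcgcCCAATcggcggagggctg
Cdc45, chr16:18811923-18812222, minus strand: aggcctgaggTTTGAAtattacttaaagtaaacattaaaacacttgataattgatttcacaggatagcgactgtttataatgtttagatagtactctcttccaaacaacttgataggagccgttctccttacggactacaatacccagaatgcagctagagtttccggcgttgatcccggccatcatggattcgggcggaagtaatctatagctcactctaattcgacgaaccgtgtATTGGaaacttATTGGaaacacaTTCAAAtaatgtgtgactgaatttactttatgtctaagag
Pcna, chr2:132253131-132253430, minus strand: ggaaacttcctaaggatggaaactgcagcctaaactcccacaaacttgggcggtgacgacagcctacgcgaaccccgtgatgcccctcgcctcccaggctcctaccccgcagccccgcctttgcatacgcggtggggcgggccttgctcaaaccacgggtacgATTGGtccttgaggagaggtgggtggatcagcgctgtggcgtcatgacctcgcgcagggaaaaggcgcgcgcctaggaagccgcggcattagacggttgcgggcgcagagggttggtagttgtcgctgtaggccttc
Ube2c, chr2:164769679-164769978, plus strand: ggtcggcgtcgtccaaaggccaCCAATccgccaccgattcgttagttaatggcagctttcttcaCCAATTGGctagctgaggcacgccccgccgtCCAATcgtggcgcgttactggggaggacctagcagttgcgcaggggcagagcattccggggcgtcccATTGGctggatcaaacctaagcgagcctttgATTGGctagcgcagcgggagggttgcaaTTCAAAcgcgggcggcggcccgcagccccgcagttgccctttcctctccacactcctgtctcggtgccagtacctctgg
The *Cdk1* promoter held 1 E2F match, 2 CHR matches and 3 CCAAT boxes, and the *Cks2* promoter held 4 CCAAT boxes and neither of the others. The *Ube2c* promoter held 1 CHR match and 6 CCAAT boxes, 2 of them overlapping on opposite strands. An E2F match stood in a promoter of 8 of the 37 genes, against 2.26% of all 32851 promoters of the same length. A CHR match stood in 16 (17.9% of all) and a CCAAT box in 27 (37.4% of all). By role, E2F matches fell in 5 of 8 helicase and fork genes and in 0 of 6 mitotic kinase and spindle checkpoint genes, and CHR matches in 2 of 8 and 4 of 6. The matches are descriptions of these letters and not sites of binding.

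In wild-type lungs 22 h after LPS, 14 of the 44 genes rose and 0 fell, and all 14 rises were under 2-fold. The background of that comparison was 12.8% of all probe sets called higher and 20.0% called lower, against 31.8% and none of the cell cycle genes. Differences ran from -0.17 (*Foxm1*, a transcription factor of the G2 program) to 0.76 (*Cks2*), with a median of 0.20 beside -0.0038 over all probe sets, and 36 of 44 were positive. The 14 were *Cdk1*, *Ccnb2*, *Ccna2*, *Cks2*, *Mcm3*, *Mcm5*, *Cdc45*, *Pcna*, *Tk1*, *Aurkb*, *Kif22*, *Birc5*, *Top2a* and *Ube2c*. Without replicate 2 the count was 13 (background 19.5% higher), of which 10 were among the 14, and the median was 0.13. Without saline replicate 2 it was 7, given without the share of all probe sets called in that fit.

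At 7 h the wild-type count was 7 higher and 0 lower, or 15.9% of the genes beside a background of 14.4% called higher and 17.9% lower, so the share called higher was close to that of all probe sets. The 7 were *Cks2*, *Top2a*, *Pcna*, *Birc5*, *Ube2c*, *Mki67* and *Mcm3*. The median was 0.09 beside -0.05 over all probe sets. In 17 genes the LPS mice lay above all saline mice (20.4% of all probe sets did) and in 4 below (29.1%). The 7 calls became 3 without LPS replicate 3 and 4 without LPS replicate 1, LPS replicate 2 or saline replicate 2. The shares of all probe sets called in those fits are not given. Without the outlying 22 h array, which shares the estimate of the spread, the calls were 10 higher and 3 lower (*Tyms*, *Cenpa*, *Cdc20*). The background was then 19.4% higher and 26.7% lower.

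**Figure D1:**
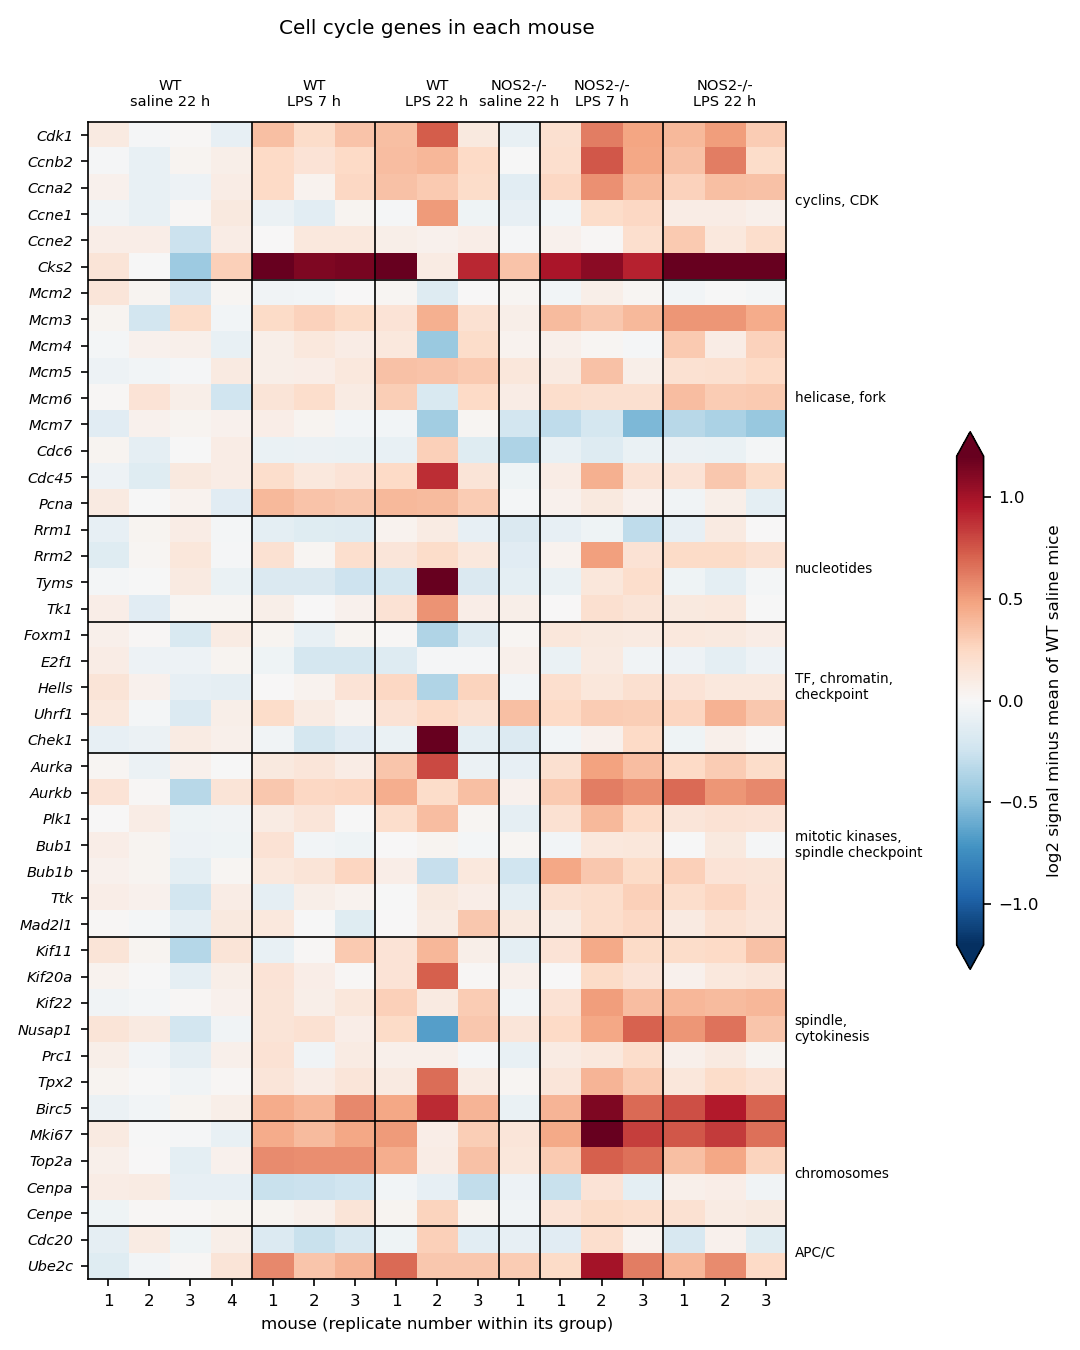
Each row is a cell cycle gene and each column a mouse, coloured by log2 signal minus the mean of the 4 wild-type saline mice, with genes ordered by role and mice by group. The array medians of these differences were 0.08 to 0.13 in wild-type mice 7 h after LPS and 0.17 to 0.19 in *NOS2*-/- mice 22 h after LPS, and wild-type LPS 22 h replicate 2 departs from its neighbours in *Tyms*, *Chek1*, *Cks2* and *Nusap1*.

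Among the cyclins and CDK genes, 4 of 6 rose in wild-type mice at 22 h and 1 of 6 at 7 h (beside 12.8% and 14.4% of all probe sets). *Cdk1*, the kinase that drives entry into mitosis, read 8.68, 8.55, 8.58 and 8.47 in the saline mice, 8.93, 8.79 and 8.91 at 7 h, and 8.93, 9.30 and 8.69 at 22 h. All LPS mice lay above the saline mice, though replicate 3 at 22 h only just, and the highest value was that of the outlying array. The rise at 22 h was 0.40 ± 0.12 (1.32-fold, limma adjusted p = 0.0206) and 0.24 ± 0.10 without replicate 2 (adjusted p = 0.0734). *Ccna2*, a cyclin of S and G2 phase, rose by 0.29 ± 0.08 at 22 h (limma adjusted p = 0.0102) and *Ccnb2*, a cyclin of mitosis, by 0.33 ± 0.11 (adjusted p = 0.0312), and both were called without replicate 2. The S-phase entry cyclins *Ccne1* and *Ccne2* were not called in any comparison.

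*Cks2*, a small subunit that docks CDK1 to its substrates, gave the largest response of the 44 genes in wild-type mice. In the wild-type saline mice it read 7.80, 7.64, 7.21 and 7.93, followed by 8.85, 8.76 and 8.78 at 7 h, and 8.92, 7.75 and 8.55 at 22 h. In *NOS2*-/- mice it read 7.99 after saline, 8.63, 8.73 and 8.57 at 7 h, and 9.29, 9.24 and 9.18 at 22 h. All LPS mice were above all saline mice but for wild-type replicate 2 at 22 h, which lay among them. The rise in wild-type mice was 1.15 ± 0.21 at 7 h (2.23-fold, limma adjusted p = 0.000432) and 0.76 ± 0.21 at 22 h (adjusted p = 0.00991), the latter 1.09 ± 0.14 without replicate 2. A second *Cks2* probe set gave 1.22 and 0.93 (limma adjusted p = 1.44e-07 and 2.98e-06).

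Of 9 helicase, loading and fork genes, 4 rose in wild-type mice at 22 h (beside 12.8% of all probe sets). *Mcm5*, a helicase subunit, read 7.50, 7.52, 7.54 and 7.66 after saline, 7.62, 7.63 and 7.68 at 7 h, and 7.91, 7.89 and 7.86 at 22 h. Its groups overlapped at 7 h and were apart at 22 h, where the rise was 0.34 ± 0.07 (limma adjusted p = 0.00141, and 0.33 without replicate 2). *Mcm3*, another subunit, rose by 0.26 ± 0.09 at 22 h (adjusted p = 0.0382) with overlapping groups, and by 0.17 without replicate 2 (adjusted p = 0.121). The helicase subunits did not move as 1 block: *Mcm2* differed by -0.04, *Mcm4* by -0.03 and *Mcm7* by -0.14, none of them called. *Cdc45*, which joins the helicase at firing origins, read 7.59, 7.50, 7.77 and 7.74 after saline and 7.89, 8.54 and 7.81 at 22 h. Its rise of 0.43 ± 0.14 (adjusted p = 0.0282) was 0.20 ± 0.09 without the high value of replicate 2 (adjusted p = 0.0947).

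*Pcna*, the sliding clamp of the replication fork, had the lowest adjusted p of the 44 genes between LPS-treated mice of the 2 genotypes at both times. In the wild-type saline mice it read 11.38, 11.27, 11.32 and 11.14, 11.67, 11.62 and 11.60 at 7 h, and 11.66, 11.66 and 11.59 at 22 h. In *NOS2*-/- mice it read 11.25 after saline, 11.33, 11.40 and 11.33 at 7 h, and 11.23, 11.35 and 11.16 at 22 h. Every wild-type LPS mouse exceeded every other mouse of the study. The wild-type rises were 0.35 ± 0.07 at 7 h and 0.36 ± 0.07 at 22 h (limma adjusted p = 0.000712 and 0.000599), and the *NOS2*-/- differences were 0.10 and -0.01.

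Of the 4 nucleotide supply genes, *Tk1* (thymidine kinase) alone was called, at 22 h in wild-type mice. It read 8.23, 8.59 and 8.14 there and 7.92 to 8.14 after saline, for a rise of 0.26 ± 0.10 (limma adjusted p = 0.0459) that was 0.13 ± 0.07 without replicate 2 (adjusted p = 0.19). *Tyms* (thymidylate synthase) read 6.23, 8.02 and 6.27 at 22 h, so that its mean was set by 1 mouse, and *Rrm1* and *Rrm2*, the subunits of ribonucleotide reductase, differed by 0.01 and 0.17. None of the 5 transcription factor, chromatin maintenance and checkpoint genes was called in any of the 4 LPS comparisons. These are *E2f1*, *Foxm1*, *Hells*, *Uhrf1* and *Chek1*, the S-phase checkpoint kinase. *Chek1* read 6.86, 8.24 and 6.82 in wild-type mice at 22 h, again with 1 mouse apart.

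Of the 7 mitotic kinase and spindle checkpoint genes, *Aurkb*, the kinase of the chromosomal passenger complex, was called in wild-type mice at 22 h. It read 7.75, 7.53 and 7.68 there and 7.48, 7.33, 6.98 and 7.47 after saline, a rise of 0.34 ± 0.11 (limma adjusted p = 0.0276). A dimmer second *Aurkb* probe set differed by 0.07 (adjusted p = 0.579). *Aurka*, *Plk1*, *Bub1*, *Bub1b*, *Ttk* and *Mad2l1* were not called in wild-type mice at either time.

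Of the 7 spindle and cytokinesis genes, *Birc5* and the chromosome motor *Kif22* rose in wild-type mice at 22 h. *Birc5* (survivin), which anchors Aurora B to chromosomes and also restrains apoptosis, read 7.37, 7.41, 7.47 and 7.51 after saline, 7.89, 7.83 and 8.02 at 7 h, and 7.91, 8.34 and 7.85 at 22 h. The LPS mice were above the saline mice at both times, with differences of 0.47 ± 0.14 and 0.59 ± 0.14 (limma adjusted p = 0.0185 and 0.00444, and 0.44 ± 0.13 at 22 h without replicate 2). *Kif22* rose by 0.23 ± 0.08 (adjusted p = 0.0277). *Nusap1*, which bundles spindle microtubules, read 8.22, 7.33 and 8.31 at 22 h, where its difference was -0.04 with replicate 2 and 0.27 without it, neither called.

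Of the 4 chromosome genes, *Top2a* (DNA topoisomerase II alpha) read 7.92, 7.87, 7.74 and 7.92 in the wild-type saline mice, 8.43, 8.42 and 8.42 at 7 h, and 8.30, 7.95 and 8.21 at 22 h. Both LPS groups lay above saline, with differences of 0.56 ± 0.10 at 7 h and 0.29 ± 0.10 at 22 h (limma adjusted p = 0.000409 and 0.0358). Its second, dimmer probe set gave -0.22 at 7 h (adjusted p = 0.578). *Mki67*, the proliferation antigen Ki-67, read 7.67, 7.56, 7.55 and 7.48 after saline, 8.01, 7.94 and 8.03 at 7 h, and 8.07, 7.64 and 7.86 at 22 h. Its rise was 0.43 ± 0.14 at 7 h (adjusted p = 0.0281). At 22 h the difference was 0.29 ± 0.14 (adjusted p = 0.133) and, without replicate 2, 0.40 ± 0.14 (adjusted p = 0.0293). *Ube2c*, the ubiquitin-conjugating enzyme of the anaphase-promoting complex, rose by 0.44 ± 0.15 at both times (adjusted p = 0.037 and 0.0333). *Cdc20*, the activator of that complex, differed by -0.21 and 0.03 and was called at neither.

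**Figure D2:**
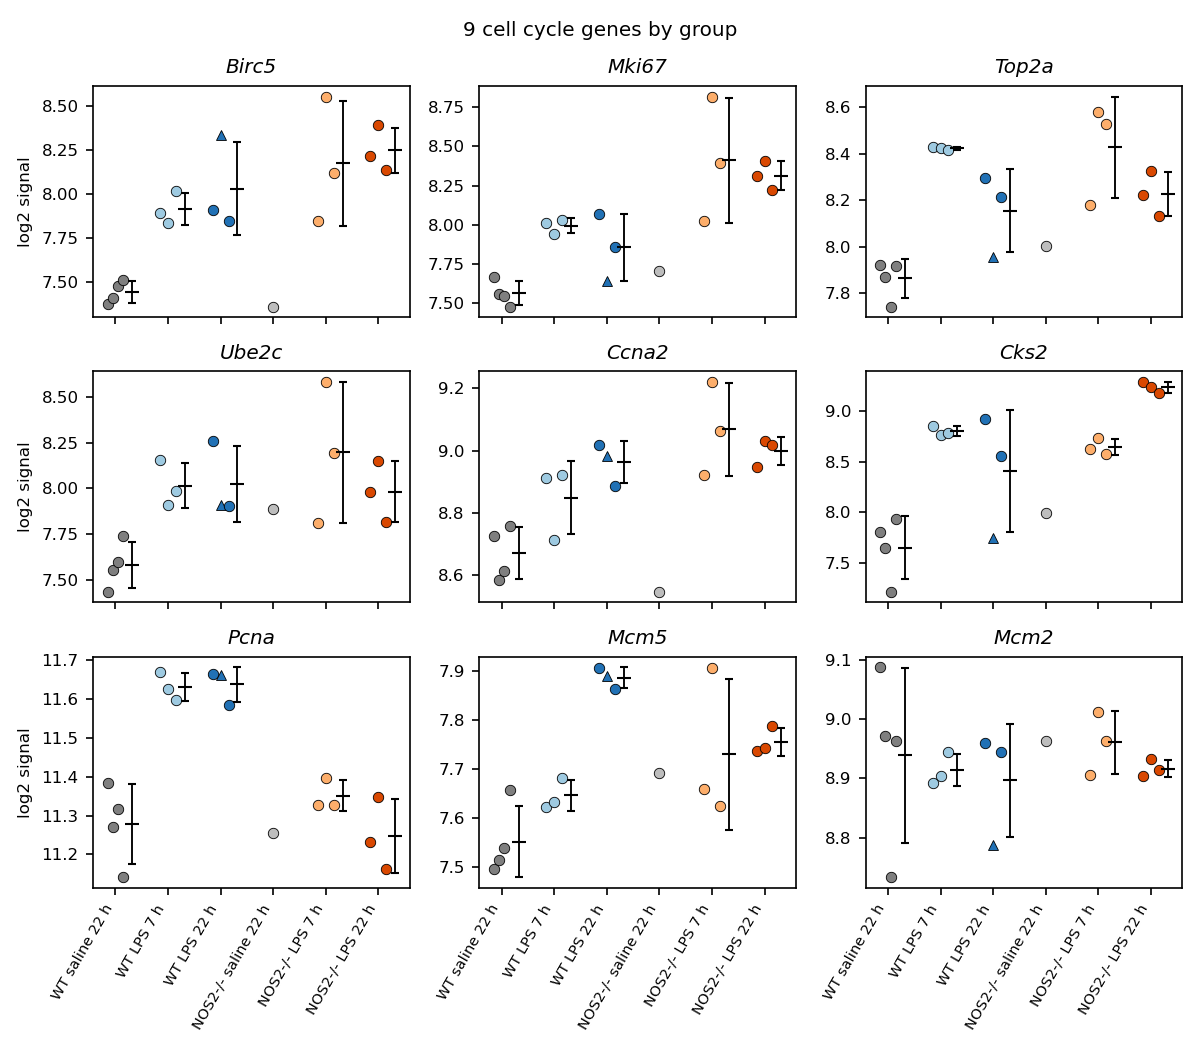
Log2 signal of 9 cell cycle genes in each mouse by group, with the mean and SD of each group beside its points (no SD for the 1 saline *NOS2*-/- mouse) and triangles for wild-type LPS 22 h replicate 2. *Pcna* separates by genotype after LPS, *Cks2* is highest in *NOS2*-/- mice at 22 h (9.18 to 9.29), and *Mcm2* overlaps between all groups of more than 1 mouse.

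In *NOS2*-/- lungs, 6 genes rose and 0 fell at 7 h (background 8.78% higher and 13.7% lower), and 8 rose and 0 fell at 22 h (11.6% and 16.0%). The 6 were *Ccna2*, *Plk1*, *Bub1b*, *Kif22*, *Birc5* and *Mki67*, and the 8 were *Ccna2*, *Cks2*, *Mcm3*, *Aurkb*, *Bub1b*, *Kif22*, *Birc5* and *Mki67*. Medians were 0.25 and 0.19, beside 0.04 and 0.03 over all probe sets. These comparisons share the 1 saline mouse, and without wild-type LPS 22 h replicate 2, which enters the common spread, the counts were 17 and 14 (background 16.4% and 18.1% higher, 21.8% and 23.1% lower). At 7 h the count was 3 without replicate 2 of that group and 11 without replicate 1, and at 22 h it was 4 without replicate 1. The shares of all probe sets called in those fits are not given. Against the 4 wild-type saline mice the counts were 17 at each time, 16 of them higher, given without the share of all probe sets called against those mice.

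*Birc5* read 7.36 in the saline *NOS2*-/- mouse, 7.85, 8.56 and 8.12 at 7 h, and 8.22, 8.39 and 8.14 at 22 h. It rose by 0.82 ± 0.22 and 0.89 ± 0.22 (limma adjusted p = 0.0121 and 0.00564). *Mki67* read 7.71 after saline, 8.02, 8.82 and 8.39 at 7 h, and 8.31, 8.41 and 8.22 at 22 h. The mice at 7 h spread more widely than those at 22 h, and the rises were 0.70 ± 0.21 and 0.60 ± 0.21 (limma adjusted p = 0.0262 and 0.0468). *Bub1b*, the kinase-like spindle checkpoint protein BubR1, read 8.47 after saline, 9.17, 9.03 and 8.94 at 7 h, and 8.99, 8.87 and 8.86 at 22 h. It rose by 0.58 ± 0.14 and 0.44 ± 0.14 (limma adjusted p = 0.00707 and 0.0294). In wild-type saline mice it read 8.59 to 8.76, all above the *NOS2*-/- saline mouse.

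The calls of both genotypes compare different mice but rest on the same estimate of the spread for each probe set, so they are not independent. At 7 h 2 genes were called in both, *Birc5* and *Mki67*, which is 28.6% of the wild-type and 33.3% of the *NOS2*-/- calls (over all probe sets called higher, 49.2% and 80.6%). At 22 h 6 were, *Aurkb*, *Birc5*, *Ccna2*, *Cks2*, *Kif22* and *Mcm3*, which is 42.9% and 75% of the calls (59.4% and 65.3% over all probe sets called higher). *Bub1b* and *Mki67* were called in *NOS2*-/- mice alone at 22 h, and *Ccnb2*, *Cdc45*, *Cdk1*, *Mcm5*, *Pcna*, *Tk1*, *Top2a* and *Ube2c* in wild-type mice alone. A test of the difference between the 2 responses called 0 of the 44 genes at 7 h (limma, 3 at an unadjusted p under 0.05, background 1.09%) and 0 at 22 h (3 unadjusted, background 4.70%). For *Pcna* at 22 h that difference was -0.36 ± 0.12 (limma adjusted p = 0.114). Without replicate 2, 3 were called at 7 h (*Bub1b*, *Cdc6*, *Tyms*; background 9.48%) and 1 at 22 h (*Cdc6*; 15.2%).

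**Figure D3:**
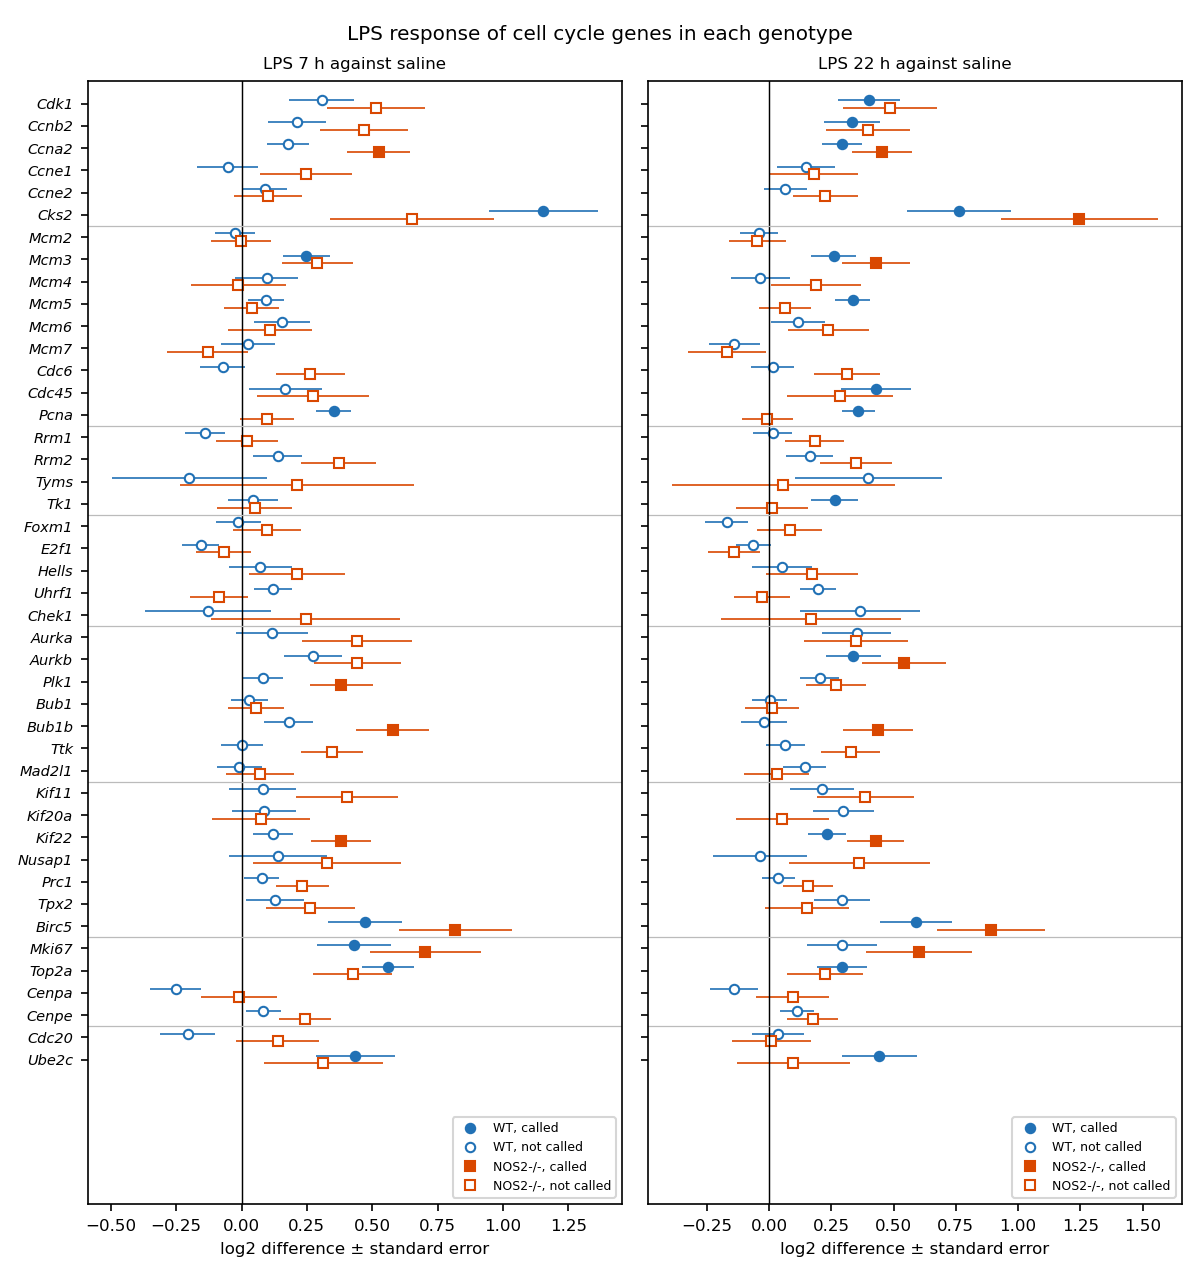
Log2 difference of LPS against saline mice with its standard error for each cell cycle gene, at 7 h and 22 h, wild-type as circles and *NOS2*-/- as squares, filled where called. At 22 h 14 wild-type and 8 *NOS2*-/- points are filled, all to the right of 0.

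Between LPS-treated mice of both genotypes, 0 of 44 genes were called at 7 h (limma, background 0.526% higher and 1.48% lower), 8 had an unadjusted p under 0.05, and the lowest adjusted p was 0.0566 (*Pcna*). The median was 0.14 beside 0.03 over all probe sets, and 38 of 44 differences were positive. Summed linear marker signals of these mice differed in both directions. Erythroid precursor sums were 4482 to 6232 in *NOS2*-/- and 3702 to 4019 in wild-type mice. Neutrophil sums were 32411 to 35568 and 37229 to 41579. The part of such cells in the difference was not tested. Without wild-type LPS 22 h replicate 2, which is in neither group, 7 were called higher in *NOS2*-/- mice (*Tyms*, *Chek1*, *Ttk*, *Kif22*, *Nusap1*, *Mki67*, *Cdc20*) and 2 lower (*Mcm7*, *Pcna*), beside 12.8% and 14.1% of all probe sets.

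At 22 h 1 gene was higher in *NOS2*-/- mice and 1 lower (background 9.63% and 6.81%). *Cks2* was higher by 0.83 ± 0.22 (1.78-fold, limma adjusted p = 0.0191), and by 0.50 ± 0.15 without replicate 2 (adjusted p = 0.0198). Its second probe set was higher by 0.48 (adjusted p = 0.00638). After saline, *Cks2* already read higher in the *NOS2*-/- mouse (7.99) than in the wild-type mice (7.21 to 7.93). The genotype difference in the LPS response of *Cks2* at 22 h was 0.48 ± 0.38, and 0.15 ± 0.24 without replicate 2. *Pcna* was lower (difference -0.39 ± 0.07, 1.31-fold, limma adjusted p = 0.00178) and the difference was -0.38 without replicate 2. In both genes the 3 *NOS2*-/- mice lay apart from the 3 wild-type mice. Without replicate 2, *Mcm3* (0.33 ± 0.09, limma adjusted p = 0.013) and *Mcm7* (-0.39 ± 0.09, adjusted p = 0.00366) were called as well, beside 11.2% and 15.4% of all probe sets. *Mcm7* read 9.89, 9.51 and 9.95 in the wild-type mice and 9.60, 9.55 and 9.47 in the *NOS2*-/- mice, so that replicate 2 alone overlapped with them. After saline, *Mcm7* already read lower in the *NOS2*-/- mouse (9.71) than in the wild-type mice (9.79 to 9.98). The genotype difference in the LPS response of *Mcm7* at 22 h was -0.03 ± 0.19, and -0.17 ± 0.14 without replicate 2.

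**Figure D4:**
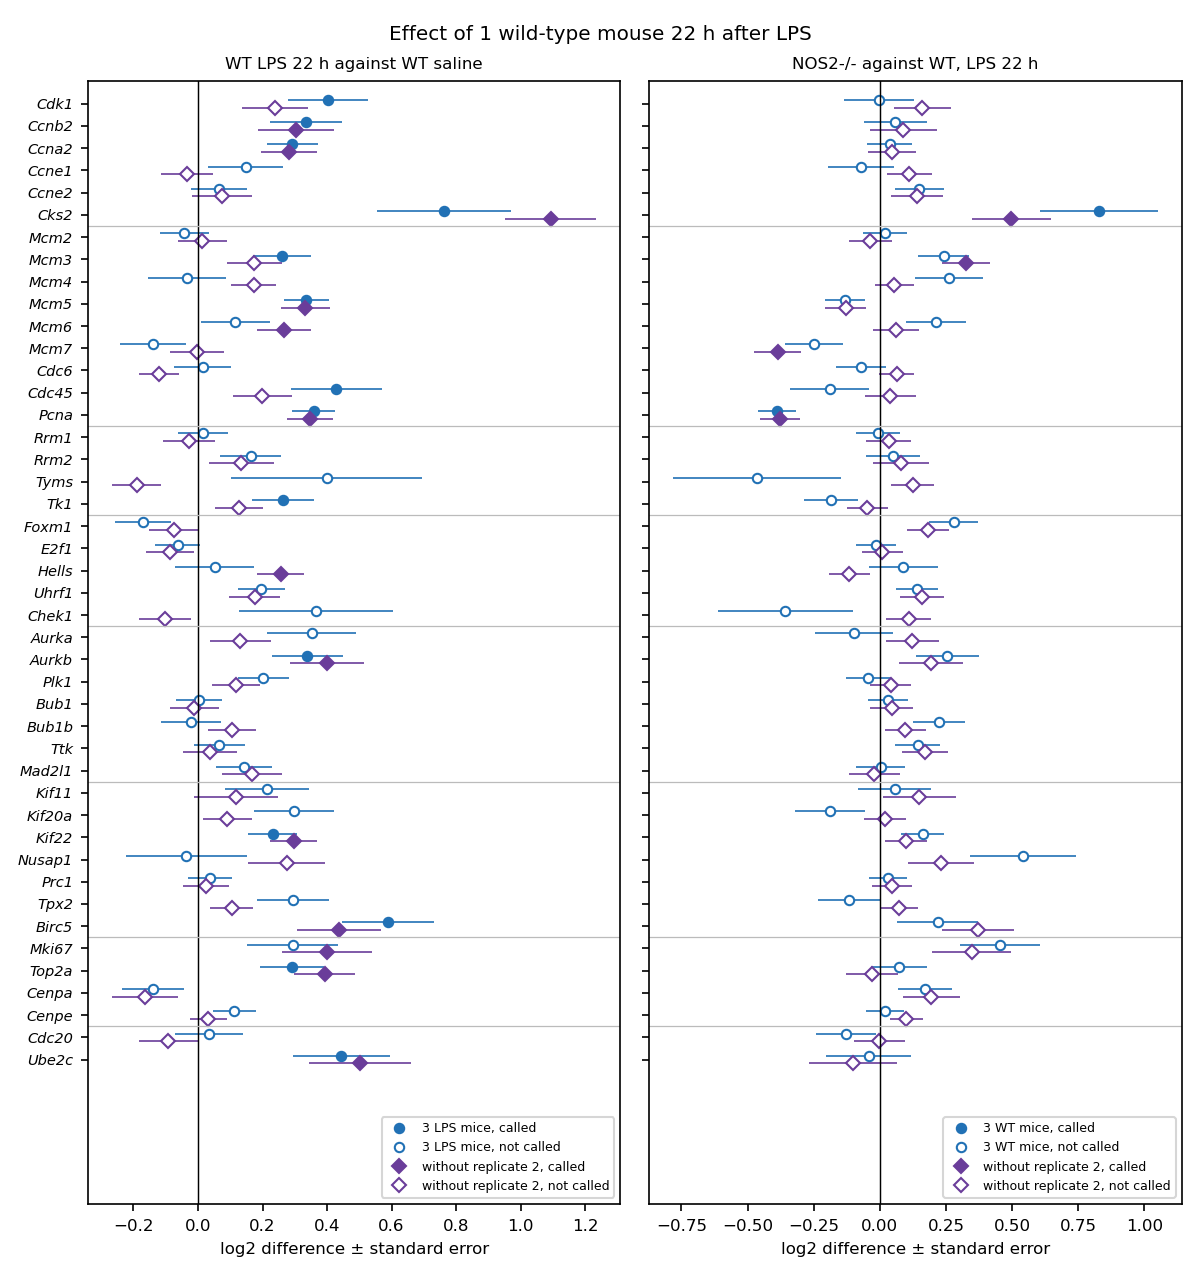
Log2 difference with its standard error for each cell cycle gene, in wild-type mice 22 h after LPS against saline (left) and in *NOS2*-/- against wild-type mice 22 h after LPS (right), with all mice (circles) and without wild-type LPS 22 h replicate 2 (diamonds), filled where called. *Cdk1*, *Mcm3*, *Cdc45* and *Tk1* lose their call on the left without that mouse, and *Mcm6*, *Hells* and *Mki67* gain one.

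From 7 h to 22 h after LPS no cell cycle gene was called in wild-type mice (limma, 4 at an unadjusted p under 0.05, lowest adjusted p 0.0518, background 3.15% higher and 7.68% lower). Leaving out each array in turn, replicate 2 at 22 h among them, gave 0 to 1 calls in wild-type mice. The shares of all probe sets called in those fits are not given. With all arrays none was called in *NOS2*-/- mice either (1 unadjusted, lowest adjusted p 0.134, background 4.65% and 3.16%), where *Cks2* differed by 0.59 ± 0.22. Without replicate 2 that difference of *Cks2* and one of 0.20 ± 0.07 in *Mcm4* were called (limma adjusted p = 0.00407 and 0.039, background 11.7% higher). The genotype difference in the change over time called 0 of the 44 (limma, 2 unadjusted, background 2.49% and 0.544%).

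Other probe sets of the same genes gave further calls and did not always share those of the brightest. Of the 37 others, 10 belonged to genes called in wild-type mice at 22 h, all 10 with the same sign and 4 called the same way. At 7 h there were 6, of which 4 had the same sign and 2 were called the same way. For *NOS2*-/- mice 3 belonged to called genes at 7 h and 9 at 22 h, all with the same sign, and 0 and 2 were called the same way. In *NOS2*-/- mice from 7 h to 22 h, 2 other probe sets were called where the brightest was not. At 7 h against saline there was 1. *Mcm7*, not called by its brighter probe set, was lower by another in the wild-type LPS mice of both times (-0.24 and -0.27, limma adjusted p = 0.0294 and 0.0156). For *Chek1*, 2 other probe sets were higher in *NOS2*-/- mice at 22 h than in the saline mouse (0.57 and 0.65, limma adjusted p = 0.00269 and 0.00821) and than in wild-type mice at that time (0.42 and 0.40, adjusted p = 0.00398 and 0.0294), where the brightest probe set differed by -0.36 and carried the high value of replicate 2. A dimmer *Foxm1* probe set was likewise higher in *NOS2*-/- mice at 22 h (0.34, limma adjusted p = 0.011), as was one of *Mcm3* (0.34, adjusted p = 0.0145).

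Wild-type LPS 22 h replicate 2 was the highest of its 3 mice in 23 genes and the lowest in 14. It lay over 0.5 above the mean of the other mice in 7 genes and over 0.5 below it in 4, while the other mice were at most 0.40 apart in any gene. The median SD of the 44 genes was 0.18 in that group and between 0.06 and 0.13 in the other groups of more than 1 mouse.

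The genes that govern entry into the cycle and arrest moved in both directions, and the genes named are from the 4 largest called differences of each list and comparison whose groups did not overlap. Of 22 measured G1 cyclins, CDKs, CDK inhibitors and RB family genes, 6 rose and 6 fell in wild-type mice at 7 h (beside 14.4% and 17.9% of all probe sets), and 5 and 7 did at 22 h (beside 12.8% and 20.0%). *Cdkn1a* (p21), a CDK inhibitor, rose in wild-type mice by 2.17 ± 0.10 at 7 h and 2.04 ± 0.10 at 22 h and by 2.40 and 3.04 in *NOS2*-/- mice (limma adjusted p between 2.14e-10 and 2.39e-08 over the 4 comparisons). At 22 h it was 1.00 ± 0.11 higher in *NOS2*-/- than in wild-type mice (2.01-fold, limma adjusted p = 2.74e-05). Without wild-type LPS 22 h replicate 2 this difference was 0.87 ± 0.09, and the wild-type rise of *Cdkn1a* at 22 h was 2.17. The other inhibitors moved in both directions. In wild-type mice at 22 h *Cdkn1c* (p57) fell by 1.61 and *Cdkn2c* (p18) by 1.19, and *Cdkn2c* fell by 1.33 in *NOS2*-/- mice. The wild-type differences were -1.57 and -1.08 without replicate 2. *Cdkn2d*, an inhibitor of the G1 kinases, rose by 0.71 ± 0.12 in wild-type and by 1.58 ± 0.17 in *NOS2*-/- mice at 22 h (limma adjusted p = 0.000165 and 6.56e-06), and was 0.60 ± 0.12 higher in *NOS2*-/- than in wild-type mice then (adjusted p = 0.00362). *Myc*, a driver of cell growth, rose by 1.76 at 7 h in wild-type mice, and was 0.78 higher in *NOS2*-/- than in wild-type mice at 22 h. That genotype difference was 0.60 without replicate 2, and the one of *Cdkn2d* was 0.42. From 7 h to 22 h in wild-type mice *Rbl1*, an RB family member, fell by 0.91, *Myc* by 0.86 and *Ccnd2*, a G1 cyclin, by 0.74, while *Cdkn2b*, another inhibitor of the G1 kinases, rose by 0.84. In the same order these differences were -0.75, -0.69, -0.71 and 1.05 without replicate 2. Over the same interval in *NOS2*-/- mice *Ccnd2* fell by 0.65 and *Rbl1* by 0.61, and *Cdkn2b* rose by 0.65 and *Cdkn1a* by 0.63.

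Of 11 p53 and growth-arrest genes, 6 rose and 3 fell at 7 h in wild-type mice (beside 14.4% and 17.9% of all probe sets). At 22 h 4 rose and 1 fell (beside 12.8% and 20.0%). In *NOS2*-/- mice 7 of the 11 were higher and 0 lower than in wild-type mice at 22 h (beside 9.63% and 6.81% of all probe sets). *Gadd45g*, a stress-induced growth-arrest gene, rose in wild-type mice by 2.58 at 7 h and 1.68 at 22 h and by 2.63 and 2.47 in *NOS2*-/- mice. *Sesn1*, a p53 target, was 1.41 ± 0.21 higher in *NOS2*-/- than in wild-type mice at 22 h (limma adjusted p = 0.000394). Without wild-type LPS 22 h replicate 2 this was 1.18 ± 0.18, and the wild-type rise of *Gadd45g* at 22 h was 1.72. Genes of this list also fell. In wild-type mice *Sesn1* differed by -0.62 at 7 h, and *Ccng2* by -0.67 at 22 h (-0.42 without replicate 2). *Ccng1* differed by -0.62 between *NOS2*-/- and wild-type mice at 7 h. Of 31 other replication genes, 3 rose and 2 fell in wild-type mice at 22 h, and of 42 other mitotic genes, 5 rose and 5 fell. None of these shares exceeded those of all probe sets (12.8% and 20.0%). Among the replication genes was *Dbf4*, the activator of the origin-firing kinase CDC7, which rose by 0.72 ± 0.10 and by 1.27 in *NOS2*-/- mice. Among the mitotic genes *Cks1b*, the paralog of *Cks2*, rose by 0.96 ± 0.16, and *Stmn1*, which destabilises microtubules, fell by 1.89 ± 0.08 and by 1.69 in *NOS2*-/- mice. The wild-type differences without replicate 2 were 0.78 for *Dbf4*, 1.23 for *Cks1b* and -1.86 for *Stmn1*.

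Markers of several cell types changed after LPS, given here at 22 h beside 12.8% of all probe sets called higher and 20.0% lower in wild-type mice and 11.6% and 16.0% in *NOS2*-/- mice. Of 9 granulocyte precursor markers, 5 rose in wild-type and 8 in *NOS2*-/- mice. Their summed linear signal was 10878 to 12376 in wild-type saline mice and 12349 in the *NOS2*-/- saline mouse, and 27035 to 31155 and 33610 to 34588 at 22 h. All 6 neutrophil markers rose in both genotypes, from 4695 to 6461 after saline to 42750 to 46462 in wild-type mice and from 7522 to 39694 to 41927 in *NOS2*-/- mice. Of 8 monocyte and macrophage markers, 6 rose and 1 fell in wild-type mice, and 4 rose and 2 fell in *NOS2*-/- mice. 
Of 10 endothelial markers, 8 fell and 1 rose in each genotype. Of 8 fibroblast markers, 5 fell and 1 rose in wild-type mice, with a sum of 42905 to 47442 after saline and 14634 to 20229 at 22 h. The *NOS2*-/- mice had 5 fibroblast markers that fell and 0 that rose, with a sum of 46749 after saline and 20422 to 21479 at 22 h. Of 7 alveolar type 2 markers, 6 fell and 1 rose in wild-type mice, and 4 fell and 1 rose in *NOS2*-/- mice. Of 8 alveolar macrophage markers, 3 rose and 3 fell in wild-type mice, and 0 rose and 3 fell in *NOS2*-/- mice. *Chil3* is counted both in this list and among the granulocyte precursor markers. Among lymphocytes, 6 of 7 B cell markers fell in wild-type and 5 in *NOS2*-/- mice, 4 of 9 T and NK cell markers fell in each, and 1 and 2 of 6 thymocyte markers fell, with none rising in these 3 lists. Of 7 erythroid precursor markers, 1 rose and 2 fell in wild-type mice and none was called in *NOS2*-/- mice. The part of any of these cells in the responses of the cell cycle genes was not tested.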

How the data were processed

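Whole-lung RNA of 17 mice was hybridised to 1 array each. The authors made 1 log2 expression value per probe set with the affy package in R, which the study names for background correction, normalization and expression values, and deposited it; which version and options were used is not known here. No further scaling was applied to the deposited log2 values (array medians 8.46 to 8.55). The number of arrays limits the precision.

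A single limma fit (version 3.58.1, R 4.3.3) held all 17 arrays and a mean for each group (11 residual and 3.75 prior degrees of freedom), and each of 9 comparisons was a contrast adjusted by Benjamini-Hochberg over 22626 probe sets, controls left out. The genotype differences in the LPS response at 7 h and 22 h were added after the data were seen. The *NOS2*-/- saline mouse was assumed to vary like the other groups. Labels number the mice within groups and do not say that mice were housed or processed together. The fit was tested on simulated data.

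Gene symbols came from the array's probe table, updated by gene ID to GRCm38.p6. The cell cycle genes, the pathway and marker lists and the alternatives were chosen with earlier results of these data known. Every measured cell cycle gene could be named, and of each pathway list up to 4 genes per comparison with the largest called differences and no overlap between groups. Lists are described by counts beside the share of all probe sets called in the same comparison, which is not given for most alternatives. Motifs were searched on both strands. Alternatives were other scalings, array weights, separate fits of the groups compared, other ways of choosing a probe set, probe sets with a mean signal above the 40th percentile, a trended and robust fit, a replicate block, other controls, a threshold of 0.01, and each array left out. Sex-, weight- and batch-wise splits were not possible from the labels.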

Additional observations from a re-analysis of the deposited data

Results flagged for a closer look

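In 4 genes, 1 of the 4 wild-type saline mice lay far from the others, with a gap to its nearest neighbour that took up more of the group's whole range than Dixon's critical value for 4 values allows. For *Ccne2* the share was 0.982 (replicate 3 at 5.49, nearest 5.82), for *Ttk* 0.882 (replicate 3 at 7.03, nearest 7.31), for *Mcm7* 0.866 (replicate 1 at 9.79, nearest 9.96) and for *Bub1b* 0.845 (replicate 3 at 8.59, nearest 8.73). Among 44 genes, chance flags about 1 in 20 groups, and groups of 3 mice were not examined in this way. By its brightest probe set, none of the 4 genes was called in wild-type mice at 7 h or 22 h with all arrays.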

How the results depend on the processing

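In wild-type mice at 7 h, the 7 calls became 14 with array weights, 13 with the groups compared alone, 4 above the signal filter and 3 at an adjusted p under 0.01. At 22 h the 14 became 7, 6, 8 and 4 under the same settings, with a median difference of 0.14 under array weights, 0.14 above the filter and 0.24 with array medians subtracted. The filter kept 21 of the 44 genes. In *NOS2*-/- mice the 6 calls at 7 h became 24 with array weights, 17 against wild-type saline mice (median 0.20) and 2 at an adjusted p under 0.01, and the 8 at 22 h became 23, 17 and 2, and 20 with the groups alone and 4 above the filter.

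Between the genotypes after LPS at 7 h, the count of 0 became 29 with array weights (median 0.18), 5 with the groups alone and 1 with array medians subtracted, with the mean of a gene's probe sets or above the filter, and the median was 0.10 after quantile normalization. At 22 h the 2 became 4 with array medians subtracted, array weights or the mean of probe sets, 5 after quantile normalization, 0 with the groups alone and 1 at 0.01. From 7 h to 22 h in wild-type mice, the 0 became 1 with array medians subtracted or the mean of probe sets, and the median was 0.0066 above the filter. In *NOS2*-/- mice it became 6 with array weights and 1 with the groups alone or the mean of probe sets. The genotype difference in that change went from 0 to 1 with array weights or the mean of probe sets, and its median was -0.10 with array weights and with the most variable probe set. The estimate of the array weights stopped before full convergence, and gave wild-type LPS 22 h replicate 2 a weight of 0.0411. The counts under these settings, here and above, are given without the share of all probe sets called under the same setting. They are therefore not results about the cell cycle genes in particular. The cause of these shifts was not tested.

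Leaving out each array in turn gave 3 to 13 calls and a median of 0.07 to 0.11 in wild-type mice at 7 h, 7 to 15 and 0.13 to 0.23 at 22 h, 3 to 17 and 0.21 to 0.29 in *NOS2*-/- mice at 7 h, and 4 to 14 and 0.19 to 0.19 at 22 h. Between the genotypes it gave 0 to 9 and 0.10 to 0.18 at 7 h, and 1 to 5 and 0.0088 to 0.0764 at 22 h. Over time it gave 0 to 1 and 0.0295 to 0.0872 in wild-type mice, 0 to 2 and -0.0860 to 0.0164 in *NOS2*-/- mice, and 0 to 1 and -0.13 to -0.0342 for the difference. Among these fits, shares of all probe sets called are given only for those without wild-type LPS 22 h replicate 2. Between the genotypes at 7 h the 9 calls came without wild-type LPS 22 h replicate 2. The share of all probe sets called there was then 12.8% higher and 14.1% lower, against 0.526% and 1.48% with all arrays. At 22 h the 5 calls came without replicate 1 of the wild-type LPS 22 h group. *Cks2*, *Bub1b*, *Birc5*, *Mcm5* and *Pcna* kept 7 calls between them under every alternative that gave a value. The signal filter left out *Birc5* and *Mcm5*, and without the *NOS2*-/- saline mouse the response of that genotype has no value. Of 983 values of 37 calls, 817 kept direction and call, 165 lost the call, and 1 turned: *Top2a* at 7 h in wild-type mice was -0.22 by its most variable probe set.

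Same-numbered mice of different groups correlated between -0.385 and 0.362 in their deviations, and mice of unlike number between -0.401 and 0.425. These ranges cannot show whether same-numbered mice were handled together. With the replicate number as a block, 9 genes were called in wild-type mice at 22 h. The share of all probe sets called in that fit is not given.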
